A study of Mus musculus with 2 samples.

Results

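Chromosome 16 of the mouse held 416 protein-coding genes with a mean level of at least 1 CPM (counts scaled to library size) over the pair of sequenced tumours. They were chosen by that level alone, with CPM taken over each library's column total, and put in the order of their start positions. They are 416 of 663 protein-coding rows on the chromosome and of 13073 protein-coding genes that pass the same minimum in the whole table. The other 247 rows lay under the minimum, and 143 of those had 0 counts in both libraries. Just inside the limit were Upk1b, Abat and Lca5l with mean levels of 1.04, 1.04 and 1.08 CPM, and just outside were Maats1, AC133488.1 and Mrap with 0.998, 0.948 and 0.903 CPM.

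Each tumour grew from Hepa1-6, a mouse hepatocellular carcinoma line, in a C57BL/6 host. The first group is 1 tumour from cells carrying a vector control lentivirus with GFP and a puromycin resistance marker (the library labelled vector), and the second is 1 tumour from cells carrying an IRF8-overexpression lentivirus with the same cassette (the library labelled IRF8-overexpression). Both cell populations were injected into the same mouse, each on its own side, and whole tumours were harvested, so reads of host cells and of tumour cells, all mouse, stand in 1 count. The labels give no age, sex or animal number, and 1 library per group means that no difference below has a replicate check or a p-value.

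The table totals 20223649 counts for the vector library and 17316607 for the other. Irf8 on chromosome 8, the targeted gene, had 4178 counts under the vector label and 2578 under the IRF8-overexpression label, a log2 ratio of -0.51 (-0.58 to -0.44). That goes against the labels, so the libraries are named here by their labels only, and every direction rests on them. Levels are CPM after TMM scaling, and a log2 ratio is the IRF8-labelled over the vector-labelled level with a prior count of 2. Ranges in parentheses are 95% Clopper-Pearson counting intervals, which cover counting error only because PCR copies are not marked. Some fixed marker lists moved with the libraries as well: in the IRF8-labelled tumour 8 of 12 hepatocyte markers were lower by 2-fold or more and 1 was higher. All 11 measured skeletal muscle markers were higher by as much. Their list summed to 9.93 CPM under the vector label and 338 CPM under the IRF8 label. Markers so scarce in one library can pass the minimum only by being high in the other, so this count had little room to differ. Over all 13073 genes, changes of that size with intervals clear of 0 made up 2.34% upward and 2.75% downward. Of 5 measured mast cell markers 4 were lower by 2-fold or more, with summed levels of 46.1 and 19.9 CPM. In bulk tumours, fewer cells of a type and less RNA per cell cannot be told apart.

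Genes of a chromosome share a template molecule, and a change in the copies of that molecule in a cell population is known to move many of its transcripts by small and similar amounts. Single genes can depart far from that common level when their own promoters respond to cell identity or to signals. Mouse chromosome 16 carries blocks homologous to several human regions, among them the DiGeorge interval of 22q11 and a large part of chromosome 21, together with a cluster of liver plasma protein genes, the interferon receptor genes and many lymphocyte surface genes.

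The 250 bases before the start site are shown for 7 genes, so that the loci discussed below can be read. They are genes of plasma proteins and their neighbour Adipoq, and Retnla as a macrophage gene, chosen with their ratios known and not as the 7 that departed furthest. Kng1, which belongs to the same cluster, is named only. All lie on chromosome 16 of GRCm38.p6 (the assembly that mm10 names) and come from RefSeq, 5′ to 3′ on the gene's strand. RefSeq's start can differ from the gene end in the deposited table, by 738 bases for Ahsg and 381 for Kng2. Serpind1 is at chr16:17331121-17331370 (plus), Ahsg at chr16:22891765-22892014 (plus), Fetub at chr16:22918132-22918381 (plus), Kng2 at chr16:23029102-23029351 (minus), Adipoq at chr16:23146286-23146535 (plus), Cpn2 at chr16:30267533-30267782 (minus) and Retnla at chr16:48842359-48842608 (plus). Capitals mark matches on either strand to TATAAA, known as the core of a TATA box, to the C/EBP letters TTGCNNAA, to the HNF1 half-site GTTAAT or to the forkhead letters GTAAACA, and no letters of any 2 of these patterns overlap here.
Serpind1: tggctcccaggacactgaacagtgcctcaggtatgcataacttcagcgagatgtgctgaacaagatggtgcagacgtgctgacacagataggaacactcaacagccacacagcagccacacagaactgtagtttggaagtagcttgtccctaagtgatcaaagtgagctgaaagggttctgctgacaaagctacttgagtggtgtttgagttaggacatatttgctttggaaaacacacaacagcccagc
Ahsg: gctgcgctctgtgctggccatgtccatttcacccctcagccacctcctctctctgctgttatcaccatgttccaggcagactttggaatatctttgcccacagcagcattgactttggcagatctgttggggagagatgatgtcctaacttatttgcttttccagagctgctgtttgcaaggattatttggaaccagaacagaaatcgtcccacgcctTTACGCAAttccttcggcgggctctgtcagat
Fetub: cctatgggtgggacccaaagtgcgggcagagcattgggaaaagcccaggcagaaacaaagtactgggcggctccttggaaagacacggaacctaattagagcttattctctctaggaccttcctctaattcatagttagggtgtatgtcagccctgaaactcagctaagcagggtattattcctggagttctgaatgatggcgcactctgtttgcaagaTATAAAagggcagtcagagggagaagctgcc
Kng2: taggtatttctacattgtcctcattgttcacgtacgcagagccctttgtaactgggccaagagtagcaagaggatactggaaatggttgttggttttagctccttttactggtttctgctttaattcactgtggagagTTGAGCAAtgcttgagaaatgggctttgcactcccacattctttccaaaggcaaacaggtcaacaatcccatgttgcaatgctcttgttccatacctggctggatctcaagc
Adipoq: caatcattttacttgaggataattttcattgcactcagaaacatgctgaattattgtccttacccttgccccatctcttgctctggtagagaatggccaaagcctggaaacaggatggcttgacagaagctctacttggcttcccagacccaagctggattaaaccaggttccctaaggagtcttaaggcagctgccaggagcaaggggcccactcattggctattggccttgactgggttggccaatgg
Cpn2: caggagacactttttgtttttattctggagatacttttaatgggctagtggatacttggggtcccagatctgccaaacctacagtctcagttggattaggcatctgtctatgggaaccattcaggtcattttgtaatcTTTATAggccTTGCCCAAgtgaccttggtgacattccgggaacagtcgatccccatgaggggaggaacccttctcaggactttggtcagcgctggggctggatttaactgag
Retnla: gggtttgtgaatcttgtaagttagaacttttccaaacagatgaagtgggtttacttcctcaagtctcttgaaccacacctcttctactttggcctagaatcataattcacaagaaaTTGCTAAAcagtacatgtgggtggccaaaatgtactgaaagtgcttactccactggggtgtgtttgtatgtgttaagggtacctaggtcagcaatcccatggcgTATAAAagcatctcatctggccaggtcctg
TATAAA was found in Fetub, Cpn2 and Retnla, and in 11.9% of 16494 windows of the same length before protein-coding genes. TTGCNNAA was found in Ahsg, Kng2, Cpn2 and Retnla, and in 9.0% of all windows. GTTAAT (5.78% of all windows) and GTAAACA (2.63%) were in none of the 7 windows. A match is a run of letters and no evidence of binding. Of the 416 members, 340 had a window. Only 15 of the 19 genes that lay furthest below the chromosome had one, under 80% of them, so a comparison of base composition between these genes and the rest was void.

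As a whole the chromosome was slightly higher under the IRF8 label. Over the 416 members the log2 ratio had a median of 0.13, the lower quartile was -0.04 and the upper quartile was 0.31. The 12657 protein-coding genes of all other chromosomes had a median of -0.0105 with quartiles of -0.19 and 0.18, so the medians lay 0.143 apart and the quartile ranges overlapped. Of the members, 291 (70.0%) had a ratio above 0, against 48.4% of genes elsewhere. Counting intervals lay above 0 for 175 members (42.1%), against 24.1% of all 13073 genes, and below 0 for 51 (12.3%), against 27.6%. Ratios of at least 1.5-fold, with no condition on the interval, were seen for 25 members upward (6.01%, against 6.69% of all genes) and 23 downward (5.53%, against 5.71%).

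Among 20 chromosomes the median of chromosome 16 was the second highest. Chromosome 9 was higher, with 0.19 over 719 genes, and chromosome 15 was at the other end, with -0.13 over 518 genes. The remaining 17 chromosomes had medians between -0.055 and 0.0136. The summed level of the members was 21561 CPM under the vector label and 23692 CPM under the IRF8 label, a log2 ratio of 0.14, close to the median ratio.

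**Figure D1:**
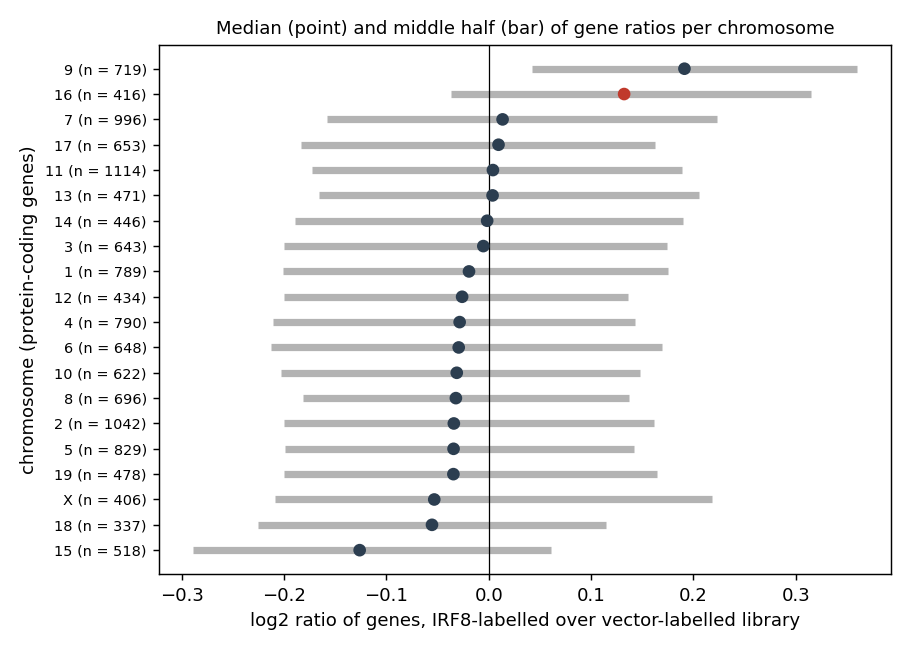
Points are the median log2 ratio (IRF8-labelled over vector-labelled library) of the protein-coding genes on each chromosome that reach the 1 CPM minimum, and bars run from the lower to the upper quartile of its genes. Chromosome 16 (red, 0.13) stands with chromosome 9 (0.19) to the right of the other chromosomes, while the bars overlap.

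The shift did not rest on scarce or on abundant genes alone. Tertiles of the members by mean level had their limits at 16.3 and 51.2 CPM. In the lowest tertile the median ratio was 0.14 for 139 members and 0.074 for 4242 genes elsewhere within the same limits. In the middle tertile it was 0.13 for 138 members and -0.0127 for 3917 genes, and in the highest 0.13 for 139 members and -0.0424 for 4498 genes. Members above 0 made up 61.2% of the lowest tertile, 71.0% of the middle and 77.7% of the highest. The shares of genes elsewhere were 56.3%, 47.6% and 41.6%, so the gap was smallest among scarce genes.

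The most abundant genes per length had both signs. Cct8, a subunit of the TRiC chaperonin, had 110.0 CPM per kilobase in the vector-labelled library and a log2 ratio of -0.15 (-0.20 to -0.10). Rpl35a, a ribosomal protein gene, was at 102.8 CPM per kilobase and 0.11 (0.067 to 0.16). Sod1, the cytosolic superoxide dismutase, was at 76.6 CPM per kilobase and -0.22 (-0.27 to -0.16). Eif4g1, a translation initiation scaffold, was at 77.9 CPM per kilobase and its interval held 0 (-0.029 to 0.049). Genes with few processed copies are counted more surely than these, since ribosomal protein and chaperonin genes have near-identical pseudogenes.

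The shift varied along the chromosome, and by the bin rule below about as often as on the other chromosomes. Members were grouped in 20 bins of 5 Mb, of which 17 held at least 5 members, and 16 of those 17 had a median above 0. On the other chromosomes 188 of 454 such bins (41.4%) did. Bins were said to depart when their median lay at least 0.15 from that of their own chromosome, and 2 of 17 did here (11.8%), against 41 of 454 elsewhere (9.03%). The 15 bins that did not depart had medians between 0.033 and 0.25.

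**Figure D2:**
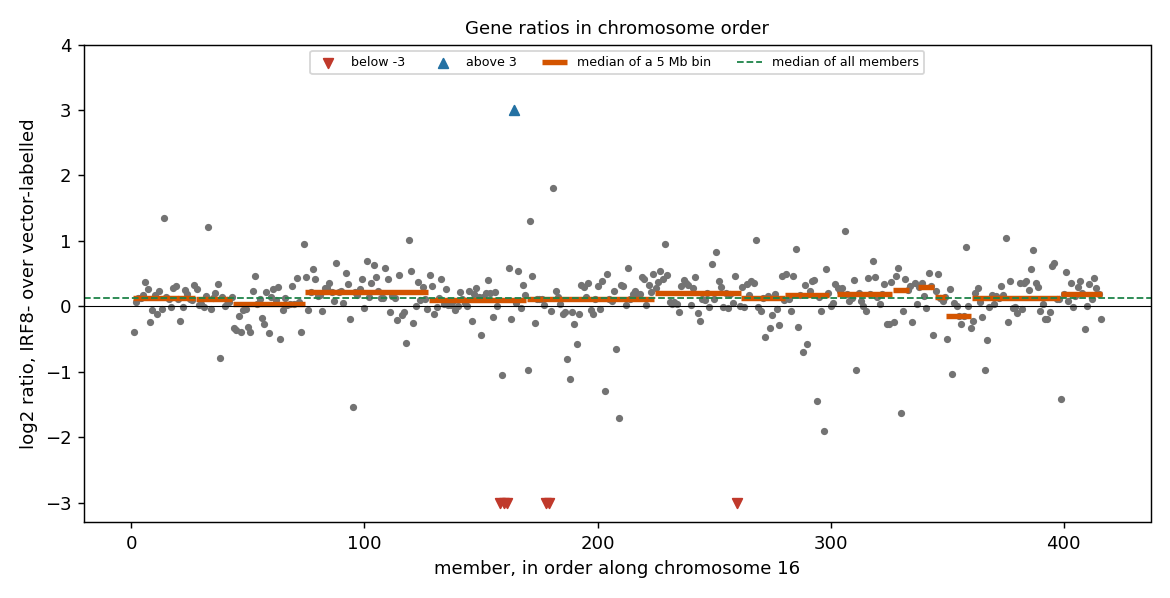
Each grey point is the log2 ratio (y axis) of 1 of the 416 members, placed by its order along chromosome 16 (x axis), with triangles at the edge for ratios beyond 3 in size. Orange bars are medians of 5 Mb bins with at least 5 members and the dashed green line is the chromosome median of 0.13, from which the bin at 85 to 90 Mb (-0.15) is the farthest.

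Among bins of 5 Mb, the stretch from 85 to 90 Mb was the only one with a median below 0. Its 11 members had a median of -0.15, with ratios from -1.04 to 0.91. Counting intervals lay below 0 for 3 of them and above 0 for 2, and the other intervals held 0. Adamts5, an aggrecan-degrading protease of cartilage matrix, had 182 vector-labelled and 77 IRF8-labelled counts (2.08-fold lower, 1.59 to 2.75). Next to it, the related protease gene Adamts1 had 759 and 800 counts, a log2 ratio of 0.26 (0.11 to 0.41), so neighbouring genes of 1 family had opposite signs. With bins of 10 Mb no bin median was below 0, and the lowest was 0.033. With bins of 2.5 Mb, 23 of 26 medians were above 0, and those below were -0.17 at 10 to 12.5 Mb (16 members), -0.15 at 85 to 87.5 Mb (8 members) and -0.037 at 30 to 32.5 Mb (29 members).

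The deubiquitinase gene Usp16 in that bin had 1782 and 1301 counts (-0.27, -0.37 to -0.17), and Cct8 beside it was the other member with an interval below 0. Bach1, a repressor of heme and antioxidant genes, was level between the libraries with 1758 and 1556 counts (0.0080, -0.091 to 0.11). Map3k7cl was the highest of the bin with 60 and 101 counts (0.91, 0.46 to 1.42). The ubiquitin ligase gene Ltn1, which acts on stalled ribosomes, and the methyltransferase gene N6amt1 had intervals that held 0, with log2 ratios of 0.0043 and 0.059.

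The other departing bin, at 75 to 80 Mb, lay above the chromosome median, with 0.29 over 7 members, 5 of them with intervals above 0. Cxadr, the receptor of coxsackievirus and adenovirus and a junction protein, had 3073 and 3833 counts (0.50, 0.43 to 0.57). The antiproliferative gene Btg3 was at 0.31 (0.20 to 0.42), the chaperone gene Hspa13 at 0.29 (0.18 to 0.41), the haematopoietic adaptor gene Samsn1 at 0.36 (0.068 to 0.65) and the nuclear receptor corepressor gene Nrip1 at 0.15 (0.073 to 0.23). D16Ertd472e went the other way with 561 and 365 counts (-0.43, -0.63 to -0.24). Without the genes of marker and tissue lists the highest bin median was 0.22, and with no minimum on CPM it was 0.27, each less than 0.15 above the chromosome median of that setting.

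A division of the ordered members by least absolute deviations, in stretches of at least 20 genes, placed the changes in level elsewhere. With 4 stretches, the 73 genes from Mefv to Abcc1 had a median of 0.091, the 37 genes from Snai2 to Zdhhc8 (14705852 to 18235136) one of 0.24, the 82 genes from Ranbp1 to 0610012G03Rik one of 0.044, and the 224 genes from Ncbp2 to the end one of 0.17. Quartile ranges of neighbouring stretches overlapped. With 3 or with 5 stretches, a group of 21 genes from Rubcn to Dirc2 (32821703 to 35769356) stood out with the highest median, 0.32. That group was close to the minimum of 20 genes. With 2 stretches, or with 4 fitted by squared deviations, neither it nor the stretch from Snai2 to Zdhhc8 was set apart. The highest median was then 0.18, for the 207 genes from Rubcn to the end. The limits of the stretches thus depended on their number and on the fit.

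All 21 genes from Rubcn to Dirc2 had ratios above 0. Counting intervals lay above 0 for 16, beside 42.1% of all members and 24.1% of all 13073 genes. Intervals lay above the chromosome median for 11 of the 21, beside 23.3% of all members. The stretch was drawn from these same ratios, so these counts describe it and test nothing. With DESeq2 size factors 20 of 21 were above 0. The highest was Sema5b, an axon guidance semaphorin gene, with 79 and 137 counts (0.96, 0.57 to 1.40). Mylk, the smooth muscle myosin light chain kinase, had 1202 and 1492 counts (0.50, 0.39 to 0.61). Itgb5, the integrin beta 5 chain, had 3021 and 3564 (0.42, 0.35 to 0.49), the endothelial gene Heg1 had 1317 and 1583 (0.45, 0.34 to 0.56), and Pdia5, a disulfide isomerase gene, had 874 and 1025 (0.41, 0.28 to 0.55). Umps, an enzyme of pyrimidine synthesis, was the lowest of the 21, with 985 and 879 counts (0.020, -0.11 to 0.15).

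The run of members above 0 went on through 4 more genes, Hspbap1, Parp14, Dtx3l and Parp9, to 25 in a row. Those 4 had ratios of 0.031 to 0.071 and intervals that held 0. It was the longest such run of the 20 chromosomes, followed by 21 genes on chromosome 9, and it was chosen here for its length. With DESeq2 size factors 24 of the 25 were above 0.

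**Figure D3:**
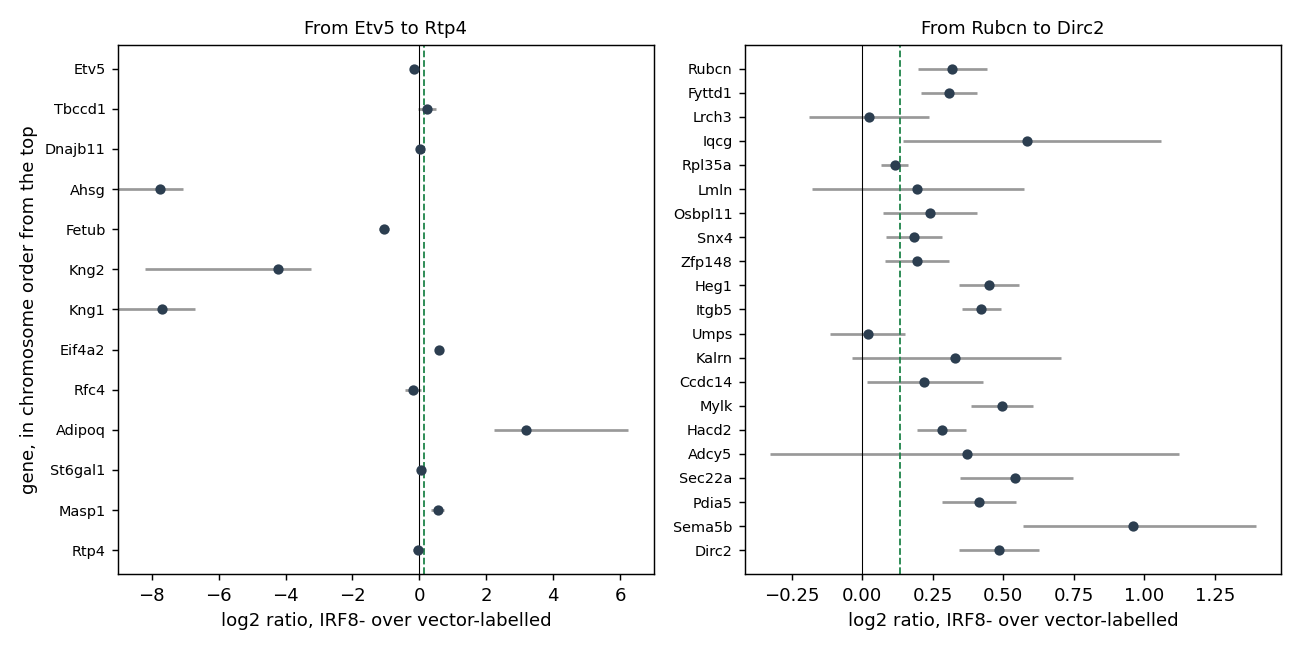
Points are log2 ratios and lines their 95% counting intervals, for 13 members from Etv5 to Rtp4 (left) and 21 members from Rubcn to Dirc2 (right), each in chromosome order from the top; lines that reach the left edge of the left panel run on beyond -9. The dashed line is the chromosome median of 0.13: Ahsg (-7.76) and Kng1 (-7.68) lie far below it while Dnajb11 (0.011) and Eif4a2 (0.59) flank the cluster, and all 21 genes on the right are above 0.

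The opposite pattern, a row of genes below 0, was seen near 10 Mb. The 8 consecutive members from Emp2 to Rmi2 (10281749 to 10892966) all had ratios below 0, with a median of -0.32 and intervals below 0 for 5. By column totals 1 of the 8 was above 0. This row was chosen after its values were seen. Ciita, the transactivator of MHC class II genes, had 2151 and 1446 counts (-0.39, -0.49 to -0.29). Socs1, a feedback inhibitor of interferon and cytokine signalling, had 1222 and 861 (-0.32, -0.45 to -0.19). The other 3 genes of the row with intervals below 0 were not immune genes by their known roles: the membrane protein gene Emp2 (-0.33, -0.42 to -0.24), the iron-sulfur cluster assembly gene Nubp1 (-0.37, -0.54 to -0.20) and Rmi2 (-0.40, -0.70 to -0.11), a part of the complex that dissolves recombination intermediates. The next member, the lipopolysaccharide response gene Litaf, was on the other side, with 4410 and 4588 counts (0.24, 0.18 to 0.30).

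Far larger departures came from single genes. By the rule of a log2 ratio of at least 1 in size and an interval that excludes 0, 9 members were at least 2-fold higher (2.16%, against 2.34% of all 13073 genes) and 16 at least 2-fold lower (3.85%, against 2.75%). Measured from the median of their own chromosome, 6 members lay at least 2-fold above (1.44%, against 2.41%) and 19 at least 2-fold below (4.57%, against 2.73%). These genes are picked by their ratios, so the values that follow describe them and test nothing. Levels under 1 CPM in a single library occurred in 12 of these 25 genes and in 16 of all 416, so part of them passed the minimum only through the library where they were high.

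**Figure D4:**
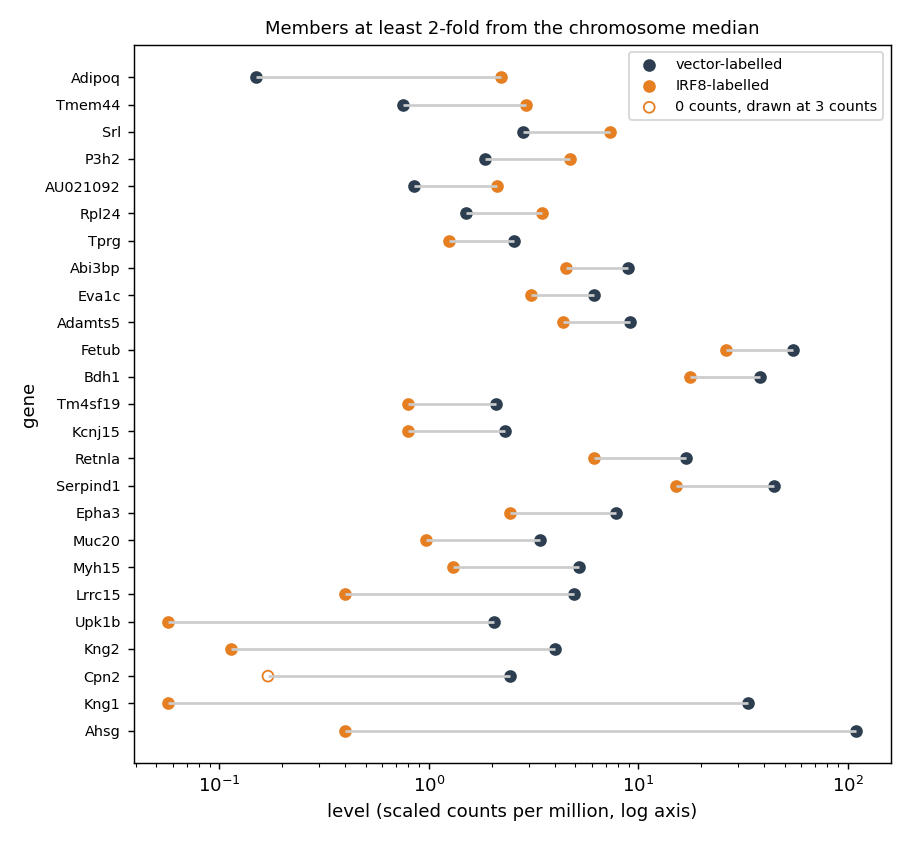
Levels (scaled CPM, log axis) of the 25 members at least 2-fold above or below the chromosome median, in the vector-labelled (dark) and the IRF8-labelled library (orange), ordered by log2 ratio. Cpn2 had 0 counts in the IRF8-labelled library and is drawn open at 3 counts; the lowest rows belong to Ahsg and Kng1, whose levels were 109.6 and 33.5 CPM in the vector-labelled library and 0.399 and 0.0570 CPM in the other.

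Genes of liver plasma proteins led the lower end, and 4 of them lie side by side near 23 Mb. Ahsg encodes fetuin-A, a calcium-binding plasma protein (ENSMUSG00000022868, 22891277 to 22899449, plus strand). It was at 109.6 CPM (2187 counts) under the vector label and at 0.399 CPM (7 counts) under the IRF8 label, 275-fold lower (133.2 to 685). Kng1, a kininogen gene and source of bradykinin (ENSMUSG00000022875, 23057865 to 23082078), had 668 counts and 1 count, 588-fold lower (105.2 to 23258). Its close relative Kng2 (ENSMUSG00000060459, 22985854 to 23029482) had 80 and 2, 35.2-fold lower (9.43 to 296). Kng1 and Kng2 are similar in sequence, and how reads were divided among the pair is uncertain. Fetub, which encodes fetuin-B and lies between Ahsg and Kng2 (22918334 to 22939778), kept a level of 26.4 CPM beside 54.9 CPM, 2.08-fold lower (1.87 to 2.33).

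The genes around this cluster did not share its ratios. On one side, the endoplasmic reticulum chaperone gene Dnajb11 had 1399 and 1241 counts (0.011, -0.10 to 0.12). On the other, the initiation factor gene Eif4a2 had 4739 and 6277 (0.59, 0.53 to 0.64) and the replication factor gene Rfc4 308 and 238 (-0.19, -0.44 to 0.061). Adipoq, the gene of the fat cell hormone adiponectin (23146536 to 23158028), follows Rfc4 and was at the opposite extreme, with 3 and 39 counts, 14.8-fold higher (4.70 to 74.7). Of 7 measured adipocyte markers, Adipoq among them, 6 were higher by 2-fold or more. Over all 13073 genes, rises of that size with intervals above 0 made up 2.34%. Adipoq, with 3 vector-labelled counts, passed the minimum only through the IRF8-labelled library. Markers that scarce under the vector label can pass only by being high in the other library. The summed level of the adipocyte markers was 339.8 and 279.0 CPM, and their part in the ratio of Adipoq was not tested. The sialyltransferase gene St6gal1 after it was level, with 3135 and 2871 counts (0.057, -0.016 to 0.13). Hrg, another plasma protein gene of the cluster, had 0 counts in both libraries.

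Plasma protein genes at other places on the chromosome had no common ratio. Serpind1, which encodes heparin cofactor II (17331371 to 17343575), had 888 and 267 counts, 2.93-fold lower (2.55 to 3.37). Cpn2, a subunit of the plasma carboxypeptidase N, had 49 and 0 counts, 14.4-fold lower against 3 counts in that library. Its counting interval began at 11.3-fold lower and had no upper limit. Pros1, the anticoagulant protein S, was higher, with 2329 and 3068 counts (0.58, 0.50 to 0.66). The complement protease gene Masp1 had 434 and 557 counts (0.54, 0.36 to 0.73) and the thrombopoietin gene Thpo 151 and 134 (0.012, -0.33 to 0.36). Of the list of 9 plasma protein genes, 8 were measured, 5 of them at least 2-fold lower and none at least 2-fold higher, with a median log2 ratio of -1.30. The median of all 13073 genes was -0.0066, and 2.75% of them were at least 2-fold lower and 2.34% at least 2-fold higher. Of the 5 lower list genes, Ahsg, Kng1 and Kng2 lay under 1 CPM in the IRF8-labelled library and passed the minimum through the other library. Cpn2 is not on the list. Summed over the 12 hepatocyte markers, which lie on other chromosomes, the level was 5514 CPM under the vector label and 2204 CPM under the IRF8 label, and the part of that difference in the plasma protein ratios was not tested.

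Another group of low genes lies between 30 and 33 Mb, in the order Cpn2, Lrrc15, Bdh1, Tm4sf19 and Muc20. Lrrc15, a membrane protein gene known from tumour-associated fibroblasts, had 98 and 7 counts, 12.3-fold lower (5.76 to 31.5). Bdh1, the mitochondrial enzyme that makes and uses beta-hydroxybutyrate, had 762 and 309, 2.17-fold lower (1.90 to 2.49). Tm4sf19 had 42 and 14 counts and the mucin gene Muc20 had 68 and 17 (3.52-fold lower, 2.05 to 6.39). Apod, which encodes the lipid carrier apolipoprotein D, lies between Tmem44 and Bdh1 with 296 and 149 counts (-0.80, -1.10 to -0.52). Tmem44, between Lrrc15 and Bdh1, went the other way, with 15 and 51 counts, 3.86-fold higher (2.14 to 7.40). The summed level of the 7 fibroblast markers was 3878 and 4263 CPM in the same order of libraries, and its part in the ratio of Lrrc15 was not tested.

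Farther along, Retnla, which encodes a resistin-like protein of alternatively activated macrophages and eosinophils (48842551 to 48844461), had 338 and 108 counts, 2.75-fold lower (2.21 to 3.45). Its relative Retnlg had 8 and 3 counts, under the minimum, and Retnlb had none in either library. Macrophage markers summed to 1408 and 1423 CPM in the same order of libraries, and their part in the ratio of Retnla was not tested. Myh15, a myosin heavy chain gene near Retnla, had 104 and 23 counts, 3.98-fold lower (2.52 to 6.55). The ephrin receptor gene Epha3 had 156 and 43, 3.19-fold lower (2.27 to 4.59). Upk1b, a uroplakin gene of the bladder lining, had 41 counts and 1 count (36.1-fold lower, 6.12 to 1460), and the potassium channel gene Kcnj15 had 46 and 14 (2.89-fold lower, 1.56 to 5.70). Abi3bp, Eva1c and Tprg completed the 19, each about 2-fold lower, with folds of 1.98, 2.00 and 2.04.

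The 6 genes farthest above the chromosome were scarce, and 1 of them reached a mean of 5 CPM. That gene was Srl, which encodes the muscle calcium store protein sarcalumenin, with 56 and 129 counts, 2.62-fold higher (1.90 to 3.65). P3h2, a collagen prolyl hydroxylase gene, had 37 and 83 (2.55-fold higher, 1.71 to 3.86) and AU021092 had 17 and 37 (2.47-fold higher, 1.36 to 4.68). Adipoq and Tmem44 are given above. Rpl24, the gene of an abundant ribosomal protein, had only 30 and 61 counts, few for such a gene, and since it has near-identical copies its ratio is uncertain. Skeletal muscle markers, which summed to 9.93 CPM under the vector label and 338 CPM under the IRF8 label, moved with Srl, and the muscle genes Popdc2 (2 and 21 counts) and Sh3bgr (2 and 23) lay under the minimum. The part of these cells in the ratio of Srl was not tested.

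The gene lists differed in their medians, and no difference between a list and the chromosome was tested. In all members of the chromosome, 42.1% of intervals lay above 0 and 12.3% below. Of 18 measured genes on the list of transcription factors and coregulators, 13 had intervals above 0 and 1 below, with a median of 0.27. Runx1, a factor of blood cell and epithelial lineages, had the highest ratio with 896 and 1433 counts (0.86, 0.74 to 0.98). Ets2 had 3368 and 4282 counts (0.53, 0.46 to 0.60), the acute phase factor gene Cebpd 519 and 608 (0.41, 0.24 to 0.58) and Son, a splicing factor of nuclear speckles, 7838 and 9039 (0.39, 0.35 to 0.43). Etv5, a factor downstream of fibroblast growth factor, was the exception with 2022 and 1586 counts (-0.17, -0.26 to -0.071). By the transcription factor column of the authors' deposited table, an annotation used after the lists had been counted, 27 members had a median of 0.18 and the other 389 one of 0.13, and on all other chromosomes 926 such genes had 0.063 and the rest -0.0163.

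**Figure D5:**
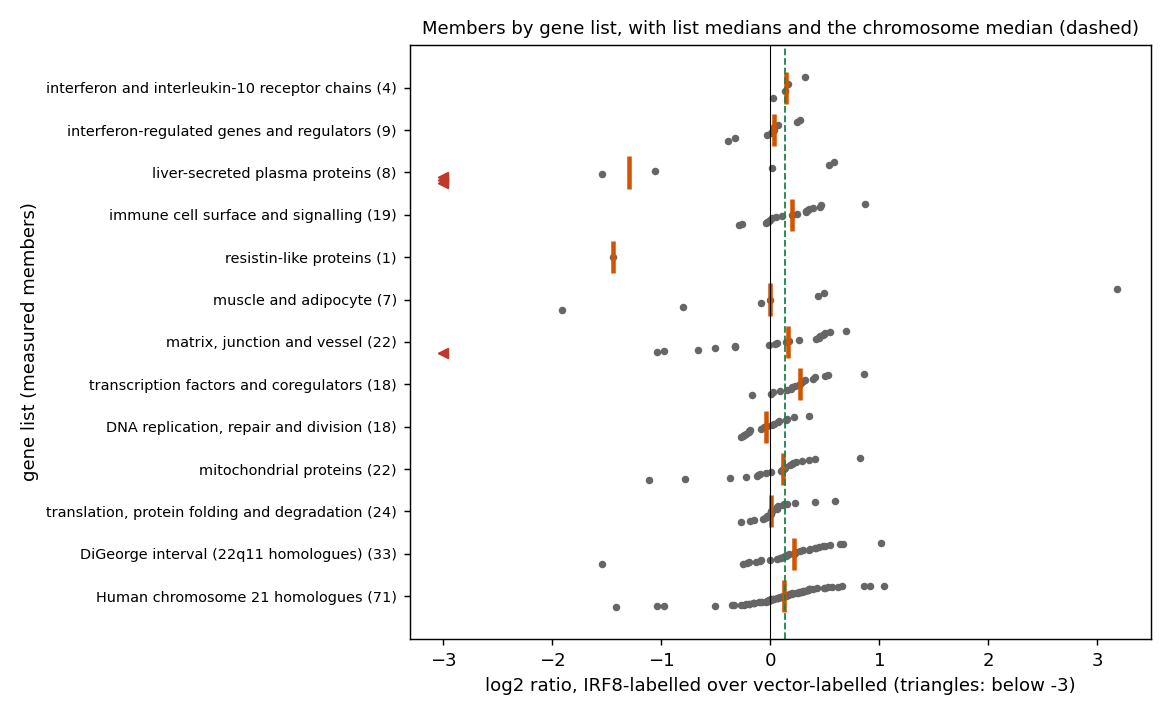
Each point is the log2 ratio of a measured member of a gene list, with the number of measured members after the list's name; orange bars are list medians, the dashed line is the chromosome median of 0.13 and triangles are ratios below -3. The transcription factor list has its bar at 0.27, the DNA replication list at -0.042 and the plasma protein list at -1.30.

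Genes of DNA replication, repair and division had a median of -0.042 over 18 members, 4 of them above the chromosome median. Intervals lay below 0 for 4 and above 0 for 2, and the other 12 held 0. By column totals 3 lay below 0 and 4 above. Cdc45, a part of the replicative helicase, had 396 and 293 counts (-0.25, -0.47 to -0.029), the purine synthesis gene Gart 1367 and 1018 (-0.24, -0.36 to -0.12) and the chromatin gene Morc3 871 and 670 (-0.19, -0.34 to -0.047). Mcm4, another helicase subunit, was at -0.054 (-0.17 to 0.058). The topoisomerase gene Top3b was the highest with 929 and 1046 counts (0.35, 0.23 to 0.48). Translation, folding and degradation genes had a median of 0.011 over 24 members, which was -0.0110 with DESeq2 size factors. Intervals lay above 0 for 6 and below 0 for 3, and with DESeq2 size factors for 4 and 5. The termination factor gene Gspt1 was the lowest of them with 2745 and 2009 counts (-0.27, -0.35 to -0.18) and Eif4a2 the highest. The list named mitochondrial proteins, whose genes are not all of mitochondrial proteins (Sod1, for example, is cytosolic), had a median of 0.12 over 22 members. They ran from Bdh1 up to the copper chaperone gene Cox17 with 141 and 221 counts (0.82, 0.52 to 1.15).

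Of 4 receptor chain genes for interferons and interleukin 10, 3 had intervals above 0 and 1, Ifnar2, had an interval that held 0. With DESeq2 size factors 2 of the 4 lay above 0. Over the chromosome 42.1% of intervals lay above 0, and over all 13073 genes 24.1%. Ifngr2, the second chain of the interferon gamma receptor, had 1889 and 2069 counts (0.32, 0.22 to 0.41). Ifnar1 had 2286 and 2203 (0.13, 0.046 to 0.22), Il10rb, the shared chain for interleukin 10 and interferon lambda, 757 and 744 (0.16, 0.011 to 0.31), and Ifnar2 1137 and 1021 (0.029, -0.095 to 0.15). Their list median of 0.14 was near the chromosome median. The list of interferon-regulated genes and regulators had a median of 0.031 over 9 members, with intervals above 0 for Litaf and Nfkbiz and below 0 for Ciita and Socs1. By column totals 4 lay above 0 and 2 below. The antiviral GTPase gene Mx1 had 407 and 359 counts, a ratio of 0.0030 (-0.21 to 0.21).

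The list of immune cell surface and signalling genes had a median of 0.20 over 19 members, and 0.10 with no minimum on CPM. Its members are not all particular to lymphocytes or myeloid cells. Intervals lay above 0 for 8 and below 0 for none, where the chromosome as a whole had 42.1% above and 12.3% below. Alcam, Cd47, Pla1a and Nectin3 were among the 8. Cd200, a ligand that restrains myeloid cells, had 263 and 425 counts (0.87, 0.65 to 1.10) and Cd200r2 482 and 585 (0.46, 0.29 to 0.64). The receptor gene Cd200r1 had 257 and 220 (-0.040, -0.31 to 0.23). Cd86, a ligand of CD28, was at 0.33 (0.13 to 0.54), while its partner gene Cd80 was at -0.013 (-0.33 to 0.30). Cd47, the signal against phagocytosis, had 3456 and 3493 counts (0.20, 0.13 to 0.27). The T cell genes Tigit (-0.0030, -0.14 to 0.13), Cd96 and Btla had intervals that held 0. T cell markers summed to 128.3 and 96.3 CPM, and their part in these ratios was not tested.

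Matrix, junction and vessel genes had a median of 0.16 over 22 members, and 0.26 among those with a mean of at least 5 CPM. Intervals lay above 0 for 11 and below 0 for 5, beside 42.1% and 12.3% over the chromosome. Col8a1, a short-chain collagen, had 7155 and 8561 counts (0.44, 0.40 to 0.49), Filip1l 658 and 936 (0.69, 0.55 to 0.84) and the tight junction genes Cldn1 and Cldn5 ratios of 0.46 (0.27 to 0.65) and 0.54 (0.17 to 0.94). Opposite them stood Lrrc15, Adamts5, Abi3bp, Emp2 and the mucin gene Muc4 (-0.66, -1.32 to -0.070).

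The blocks homologous to human regions were both above 0 in their medians. The DiGeorge list had a median of 0.21 over 33 members, with intervals above 0 for 21 and below 0 for 4. The septin gene Sept5 had the highest ratio, with 111 and 199 counts, 2.04-fold higher (1.61 to 2.59), followed by the scavenger receptor gene Scarf2 with 262 and 360 (0.64, 0.41 to 0.88) among those with a mean of at least 5 CPM. Among those below 0 were the kinase gene Pi4ka (-0.19, -0.31 to -0.074), Cdc45 and Serpind1. The list of chromosome 21 homologues had a median of 0.12 over 71 members. Intervals lay above 0 for 31 and below 0 for 8, close to the 42.1% and 12.3% of the whole chromosome. App, the amyloid precursor protein gene, had 11827 and 11510 counts (0.14, 0.11 to 0.18), Ttc3 1556 and 2168 (0.66, 0.57 to 0.76) and Dyrk1a, a kinase gene of the Down syndrome region, 1037 and 986 (0.11, -0.016 to 0.24).

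Of the list named muscle and adipocyte, whose genes are not all particular to those cells, 7 of 11 were measured. Their median was 0.0012, the ratio of Igsf11. That median was -0.021 with DESeq2 size factors and 0.49 with no minimum on CPM, where the scarce muscle genes count as well. Its measured members ranged from Myh15 to Adipoq. None of the 9 listed stefin rows on the chromosome (1 of them a pseudogene), inhibitors of cysteine proteases known from neutrophils, reached the minimum, and 7 of them had 0 counts in both libraries.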

How the data were processed

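RNA of 2 tumours, 1 per group, was made into libraries with a NEBNext Ultra kit, per the labels' protocols. The authors deposited raw counts per gene for each library, with gene coordinates, lengths and biotypes. HISAT2 2.0.5 and featureCounts 1.5.0-p3 are named with build mm10, per the submitters' processing notes. Strand use in counting was not stated, and genes with close copies or overlapping antisense genes are uncertain. Coordinates are those of the deposited table, counted from 1.

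From the counts, TMM factors were computed with edgeR 4.0.16 (R 4.3.3), and log2 ratios followed its log CPM with a prior count of 2. Intervals are 95% Clopper-Pearson intervals of the split of a gene's counts (scipy 1.17.1), converted with the effective library sizes. Folds come from scaled counts without a prior count, and against 3 counts where a library had 0. Depths of 20223649 and 17316607 counts put 3 counts at 0.150 and 0.171 CPM. Bins of 5 Mb needed 5 members. Steps were tested on simulated data. DESeq2 1.42.0 size factors, column totals, other filters, a prior count of 0.5, a thinned library and other bins were tried as alternatives.

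Members and the 14 gene lists were chosen with earlier results of these data known. Named genes were, by rule, Irf8, the 12 largest and 12 smallest ratios among members with a mean of at least 5 CPM, up to 6 members of each list farthest from the chromosome median with its 2 most abundant, up to 5 members farthest out and the 3 most abundant of each departing bin, and 3 genes on each side of the 1 CPM limit. Other genes were named after their values were seen, for their place beside these, for their departure at lower levels or for their known role. Of the list symbols, older or alternative names of one gene count once, and Fancf, Kif22 and Mrps21 proved to lie on other chromosomes. Mx2, a polymorphic pseudogene in the table, was not a member. Promoter windows came from RefSeq (GRCm38.p6), matched by symbol, chromosome and strand. The values of 1 list member are not reported here.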

Additional observations from a re-analysis of the deposited data

Results flagged for a closer look

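Rows of chromosome 16 that are not protein-coding were outside the comparisons above, and of 48 such rows with a mean of at least 1 CPM, 5 were higher by 2-fold or more under the IRF8 label. The processed pseudogene Gm20056 was the 1 row lower by as much, with 55 and 22 counts. All 5 higher rows were under 1 CPM in the vector-labelled library, so they passed the minimum only through the library where they were high. By the same rule 2.34% of all 13073 protein-coding genes were higher. The share among non-coding rows of other chromosomes was not counted. The immunoglobulin lambda genes stand close together near 19 Mb. Iglc2, a lambda constant gene, had 1 vector-labelled and 238 IRF8-labelled counts (270-fold, 48.1 to 10724). Iglc1 had 8 and 85 counts (12.1-fold, 5.86 to 28.9), and the variable gene Iglv1 had 9 and 76 (9.59-fold, 4.80 to 21.8). Iglv2 had 0 and 97, 36.7-fold higher against 3 counts, with an interval that began at 29.3-fold and had no upper limit. Lambda genes are close copies of each other, and how reads were divided among them is uncertain. Summed levels of B and plasma cell markers were 58.6 CPM under the vector label and 175 CPM under the IRF8 label, and their part in the lambda gene counts was not tested. The antisense RNA Gm16861 had 19 and 37 counts (2.21-fold, 1.24 to 4.07), and whether strand was used in counting is not given.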

How the results depend on the processing

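No paired analysis was possible because each group has 1 library. The median log2 ratio of chromosome 16 was above 0 under every setting tried, at 0.11 with DESeq2 size factors and 0.17 by column totals. Its distance to the median of the other chromosomes stayed between 0.137 and 0.154. Without the 25 departing genes the chromosome median was 0.14 (chosen after seeing the data). With a mean of at least 5 CPM, 2 members were at least 2-fold higher, 8 lower, 1 above and 9 below the chromosome median. With no minimum, 16 were higher and 13 above. With all biotypes, 14 were higher and 10 above. Without marker and tissue lists, 9 were lower and 12 below. The number of departing bins was 1 with bins of 10 Mb, 4 with bins of 2.5 Mb, 1 with no minimum and 1 without marker and tissue lists. The division into stretches set the genes from Rubcn to Dirc2 apart with 3 and with 5 stretches only. The cause of these moves was not tested. Ratios of the 41 departing or extreme genes stayed within their counting intervals in 164 of 164 recomputed values. Those values reuse the same counts with another scaling, prior count or thinning. The outcome had little room to differ and is no check of the ratios. With 1 library per group, spread between tumours is unknown, and ratios of genes under 100 counts have wide intervals.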
